A study of Mus musculus with 9 samples.

Results

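The 10 genes described here encode the secreted components of intestinal mucus and the proteins that goblet cells use to make it. They are Muc2, Tff3, Fcgbp, Clca1, Zg16, Spink4, Agr2, Spdef, Atoh1 and Bcas1, and were taken by symbol from the table of 54532 genes. Each matched 1 row, and all 10 passed the filter on low counts, as did 15416 genes in all. RNA of the duodenum was sequenced in 9 libraries of male C57BL/6 mice, 5 from animals with a Pla2g12b mutant genotype and 4 from age-matched WT animals, all of which had 3 months of regular chow. Pla2g12b belongs by sequence to the secreted phospholipases A2, lacks their catalytic activity, and is known for its part in loading lipid onto lipoproteins. The sample labels do not say which mutation the animals carried, and the age is not given in the sources used here. The title of the study names the substitution C129Y and links the gene to lipid absorption in the intestine.

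Goblet cells are secretory cells of the crypt and villus epithelium. They fold and polymerise the gel-forming mucin MUC2 in the endoplasmic reticulum and Golgi, pack it into granules together with smaller proteins, and release both onto the surface, where they form the mucus layer. Commitment to the secretory lineage, which Notch signalling restrains, needs the transcription factor ATOH1, and goblet cell maturation needs SPDEF. The marker of the cell type, Muc2, was read in every library, with 1496 to 4035 reads in mutants and 4946 to 7265 reads in WT.

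Total counts were 16245982 to 17959658 per mutant library and 16119639 to 24009157 per WT library. Within each genotype, mutants 2 and 3, mutants 4 and 5, WT 1 and 2, and WT 3 and 4 formed close pairs. The biological coefficient of variation was 0.0368 to 0.0496 in these 4 pairs and 0.164 to 0.222 in the other 12 pairs of 1 genotype. The labels number separate mice but do not say whether a pair shares an animal, litter or preparation, so n counts libraries, and results are given also with the counts of each close pair summed (3 mutant units and 2 WT units). P-values measure only the spread between these libraries. Levels are given as CPM, the count relative to a library size scaled by the trimmed mean of M values (TMM). Pla2g12b transcript was at 102 to 134 CPM in mutants and 75.6 to 104 CPM in WT and was called higher in mutants, at 0.42 on the log2 scale (SE 0.13; edgeR adjusted p = 0.023). Such a level says nothing on whether 1 amino acid was changed.

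The 5 promoters available for these genes were read to show the sequence upstream of genes that were lower together. RefSeq windows on GRCm38.p6, with 250 bases before and 50 after the gene start, were found for Muc2, Fcgbp, Agr2, Spdef and Atoh1 and for none of the other 5. Both strands were searched for the E-box CAGCTG, a core that ATOH1 binds, and for the related E-box CAGATG. They were also searched for CCGGAT, the core of SPDEF sites, and for the exact letters TATAAA, a form of the TATA box. No match overlapped another. Shown are the promoters of the 2 products with a match and of the 2 transcription factors, in lower case on the strand of the gene, with matches in capitals.
Muc2, chr7:141690090-141690389, plus strand: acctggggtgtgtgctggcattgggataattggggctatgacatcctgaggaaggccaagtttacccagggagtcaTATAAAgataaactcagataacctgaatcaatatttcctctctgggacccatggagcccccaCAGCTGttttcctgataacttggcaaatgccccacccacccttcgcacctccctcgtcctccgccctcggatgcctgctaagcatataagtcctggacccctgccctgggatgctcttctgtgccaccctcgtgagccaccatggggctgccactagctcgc
Fcgbp, chr7:28070986-28071285, plus strand: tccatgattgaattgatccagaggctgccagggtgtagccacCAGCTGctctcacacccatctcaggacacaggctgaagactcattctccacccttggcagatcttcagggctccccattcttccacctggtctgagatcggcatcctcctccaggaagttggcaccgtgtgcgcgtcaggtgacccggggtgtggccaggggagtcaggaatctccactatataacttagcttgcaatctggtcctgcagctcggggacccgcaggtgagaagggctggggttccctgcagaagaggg
Atoh1, chr6:64728875-64729174, plus strand: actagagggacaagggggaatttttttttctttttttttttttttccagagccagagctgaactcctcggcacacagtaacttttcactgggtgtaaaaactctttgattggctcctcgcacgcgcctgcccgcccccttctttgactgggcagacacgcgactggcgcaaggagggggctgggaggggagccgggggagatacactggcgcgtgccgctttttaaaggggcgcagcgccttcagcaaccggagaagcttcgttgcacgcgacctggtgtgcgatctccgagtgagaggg
Spdef, chr17:27728902-27729201, minus strand: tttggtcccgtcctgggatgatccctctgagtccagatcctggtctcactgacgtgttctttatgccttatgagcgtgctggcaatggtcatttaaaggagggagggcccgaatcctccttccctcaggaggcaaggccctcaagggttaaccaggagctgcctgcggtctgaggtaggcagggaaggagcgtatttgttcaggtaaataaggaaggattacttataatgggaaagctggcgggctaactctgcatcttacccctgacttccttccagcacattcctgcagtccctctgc

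The Muc2 window held CAGCTG starting 112 bases before the gene start, and TATAAA 174 bases before it. The Fcgbp window held CAGCTG 208 bases before the start. CAGCTG was thus found in 2 of the 5 windows and in 16.3% of 32817 windows of the same length. Of the 5 windows, 0 held CAGATG, against 17.2% of all windows, and 0 held the SPDEF core, against 6.04%. The exact letters TATAAA were in 1 of the 5 windows and in 13.6% of all windows. Other forms of the TATA box were not searched, so these counts do not say which windows hold one. These matches describe letters, not bound sites.

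The mucus genes were lower in mutant duodenum. Of the 10, 9 were called lower and 0 higher at an adjusted p under 0.05 (edgeR quasi-likelihood test, Benjamini-Hochberg over all genes tested), where 17.1% of all tested genes were called lower and 15.4% higher (32.5% either way). Their median log2 fold change, mutant over WT, was -1.43, against 0.01 for all genes tested. For the same 9 genes every mutant library lay below every WT library, which held for 16.5% of tested genes. The exception was Spink4. A log2 fold change below -1 was called for 8 of the 10 and for 10.4% of all tested genes. With close pairs summed, 6 of the 10 were called lower and 0 higher, against 6.78% and 2.23% of genes. The libraries are of whole tissue. Fewer goblet cells, less of these RNAs per goblet cell and a difference in the tissue taken cannot be told apart. Pancreatic acinar markers summed to 0 to 0.942 CPM in mutants and 25995 to 56110 CPM in WT. Their link to the mucus genes was not tested.

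**Figure D1:**
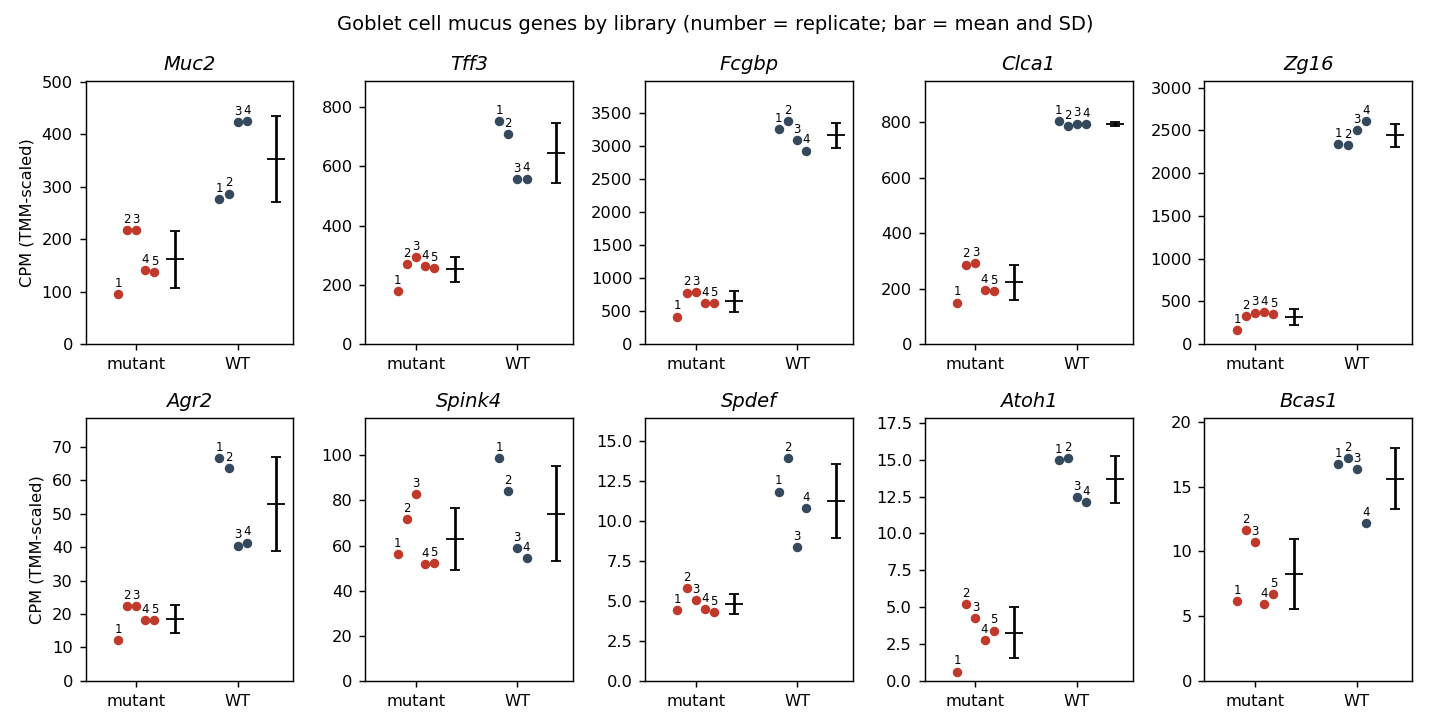
Level of each of the 10 genes in CPM on TMM-scaled library sizes (vertical axes, each starting at 0), with 5 mutant libraries in red and 4 WT libraries in dark blue; numbers are replicates and bars are mean and SD. The mutant points lie below all WT points in every panel except that of Spink4, and mutant 1 is the lowest library for 7 genes.

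Together the 10 genes took 0.0986%, 0.210%, 0.217%, 0.161% and 0.159% of all counts in mutants 1 to 5, against 0.781%, 0.793%, 0.755% and 0.751% in WT 1 to 4. The mutant median was 21.03% of the WT median. The WT libraries were close to each other, while the mutant libraries spread over more than a factor of 2, with mutant 1 lowest. In that library 7 of the 10 genes had their lowest mutant level.

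Zg16 had the largest fold change of the 10 genes in each of the 3 fits plotted. It encodes a lectin-like mucus protein that binds Gram-positive bacteria. The gene (ENSMUSG00000049350, chr7:127050156-127087328, minus strand, GRCm38) held 160.9, 327.7, 369.1, 372.6 and 354.8 CPM in mutants 1 to 5, against 2340, 2325, 2504 and 2608 CPM in WT 1 to 4. The mutant mean was 317 ± 89.0 CPM (SD, n = 5) and the WT mean 2444 ± 136 CPM (SD, n = 4), so the WT mean was 7.71 times the mutant mean. Mutant 1 had less than the other 4 mutant libraries, and no library came near the opposite group. The log2 fold change was -2.95 (SE 0.21; edgeR adjusted p = 6.99e-06). Among the 8631 genes that averaged 10 CPM or more, 0.857% had a lower value. The genes that overlap Zg16 held at most 1 read over all libraries.

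Fcgbp encodes a large mucus protein, made of repeated von Willebrand type D domains, that is secreted with MUC2. The gene (ENSMUSG00000047730, chr7:28071236-28120862, plus strand) held 416.8, 783.8, 787.8, 623.6 and 626.7 CPM in mutants 1 to 5, against 3255, 3381, 3094 and 2934 CPM in WT 1 to 4. It was the most read of the 10 genes in each library, and the groups were far apart. Its log2 fold change was -2.29 (SE 0.16; edgeR adjusted p = 4.44e-06), with the WT mean 4.89 times the mutant mean.

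Clca1 encodes a secreted metalloprotease of the mucus that cleaves MUC2. The gene (ENSMUSG00000028255, chr3:145003817-145032776, minus strand) held 150.0, 286.7, 292.1, 194.7 and 191.7 CPM in mutants 1 to 5, against 803.1, 784.8, 794.7 and 791.7 CPM in WT 1 to 4. The WT libraries agreed closely, at 794 ± 7.58 CPM (SD, n = 4), and the mutants were at 223 ± 63.2 CPM (SD, n = 5). This gave a log2 fold change of -1.83 (SE 0.18; edgeR adjusted p = 3.82e-05).

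Tff3 encodes trefoil factor 3, a small protease-resistant peptide that promotes epithelial repair. The gene (ENSMUSG00000024029, chr17:31125306-31129646, minus strand) held 178.7, 270.4, 292.5, 262.3 and 256.3 CPM in mutants 1 to 5, against 752.2, 708.8, 558.1 and 558.4 CPM in WT 1 to 4. WT 1 and 2 were above WT 3 and 4, and all mutants were below both pairs. The log2 fold change was -1.35 (SE 0.14; edgeR adjusted p = 5.58e-05).

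Muc2 encodes the polymer on which the gel is built. The gene (ENSMUSG00000025515, chr7:141690340-141754693, plus strand) held 95.3, 216.9, 217.5, 141.5 and 136.9 CPM in mutants 1 to 5, against 276.3, 286.7, 423.6 and 424.9 CPM in WT 1 to 4. WT 3 and 4 were above WT 1 and 2, and mutants 2 and 3 were above the other mutants, but the groups did not overlap. Its log2 fold change was -1.13 (SE 0.25; edgeR adjusted p = 0.0081), with a WT mean 2.18 times the mutant mean. This call did not hold in 3 settings. Summing close pairs gave -1.22 (adjusted p = 0.11). Leaving out WT 3 and 4 gave -0.80 (adjusted p = 0.088), and leaving out mutants 4 and 5 gave -0.99 (adjusted p = 0.078). GENCODE M21 tags Muc2 as a fragmented locus with 8 coding transcripts, so the gene model of 7127 bases may not count all reads of the repeat-rich mRNA.

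Spink4, a Kazal-type protease inhibitor of goblet cells, was not called. The gene (ENSMUSG00000028415, chr4:40920052-40931395, plus strand) held 56.3, 71.7, 82.7, 51.7 and 52.2 CPM in mutants 1 to 5, against 98.9, 84.3, 59.0 and 54.4 CPM in WT 1 to 4. Mutants 2 and 3 were above WT 3 and 4, so the groups overlapped. The log2 fold change of -0.24 (SE 0.20; edgeR adjusted p = 0.40) did not pass the test, which does not show that the level was equal. Its sign turned without WT 1 and 2, at 0.15 (adjusted p = 0.60), and it was called lower only with libraries scaled to 8 markers of all epithelial cells, at -0.53 (0.022).

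Agr2, a protein disulphide isomerase of the endoplasmic reticulum needed for MUC2 production, also fell. The gene (ENSMUSG00000020581, chr12:35992907-36004087, plus strand) held 12.2, 22.4, 22.3, 18.1 and 18.3 CPM in mutants 1 to 5, against 66.7, 63.6, 40.5 and 41.3 CPM in WT 1 to 4. As for Tff3, WT 1 and 2 were above WT 3 and 4. This gave a log2 fold change of -1.51 (SE 0.21; edgeR adjusted p = 4.1e-04).

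Both transcription factors fell, and the difference between them was not tested. Atoh1, of the basic helix-loop-helix family (ENSMUSG00000073043, chr6:64729125-64731245, plus strand), held 0.637, 5.22, 4.25, 2.77 and 3.41 CPM in mutants 1 to 5, against 15.0, 15.1, 12.47 and 12.11 CPM in WT 1 to 4. Mutant 1 held 10 Atoh1 reads, with an exact 95% Poisson interval of 0.305 to 1.17 CPM that covers counting error only. The other mutants held 47 to 97 reads, and the lowest of them, mutant 4, had an interval of 2.03 to 3.68 CPM. The log2 fold change of Atoh1 was -2.06 (SE 0.38; edgeR adjusted p = 0.0023), and summing close pairs gave -2.20, which was not called (adjusted p = 0.095).

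Spdef, an ETS factor (ENSMUSG00000024215, chr17:27714352-27728955, minus strand), held 4.46, 5.81, 5.08, 4.48 and 4.33 CPM in mutants 1 to 5, against 11.9, 14.0, 8.40 and 10.8 CPM in WT 1 to 4. Unlike for Atoh1, mutant 1 was within the range of the other mutants. The log2 fold change was -1.22 (SE 0.16; edgeR adjusted p = 2.5e-04), and it was called also with close pairs summed (adjusted p = 0.019).

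Bcas1, which marks goblet cells among intestinal cells and oligodendrocytes in brain, was also called lower. The gene (ENSMUSG00000013523, chr2:170346991-170427845, minus strand) held 6.18, 11.7, 10.7, 5.95 and 6.70 CPM in mutants 1 to 5, against 16.7, 17.2, 16.4 and 12.2 CPM in WT 1 to 4. The highest mutant and the lowest WT library were close. Its log2 fold change was -0.92 (SE 0.22; edgeR adjusted p = 0.0073), but it did not pass after summing close pairs (-0.96, adjusted p = 0.076) or leaving out WT 1 and 2 (-0.79, adjusted p = 0.071). The counting is not stated to use strand, and the genes that overlap Bcas1 on either strand held at most 4 reads over all libraries.

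**Figure D2:**
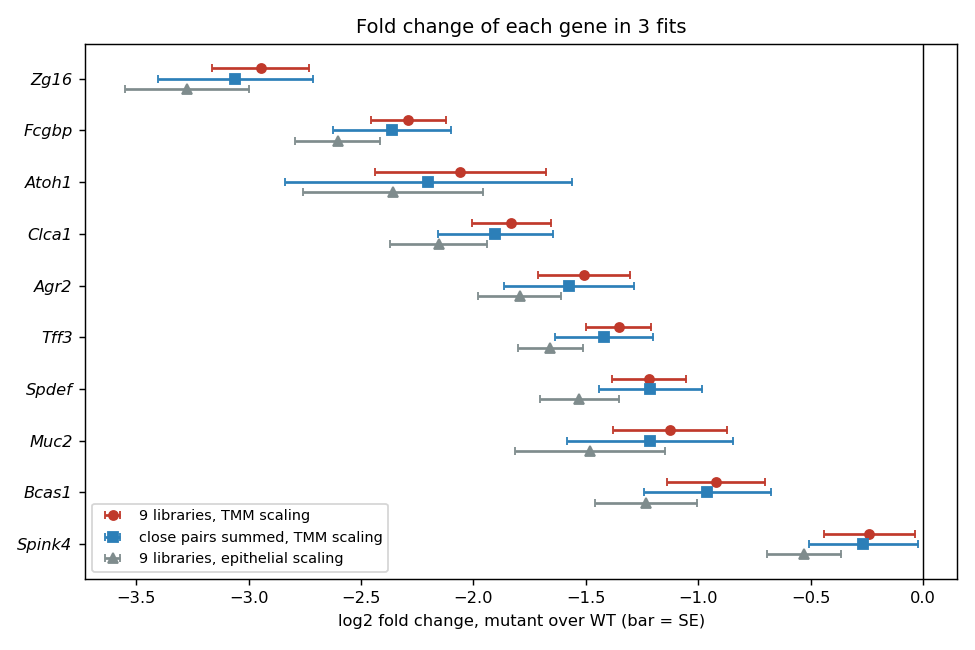
Log2 fold change of each gene, mutant over WT (horizontal axis, bars are SE), over 9 libraries with TMM scaling, with close pairs summed, and with scaling to epithelial markers. All points lie below 0, from -3.27 for Zg16 with epithelial scaling to -0.24 for Spink4 with TMM scaling.

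Scaling to the epithelial markers moved the median of all genes to -0.32. Relative to it the 10 genes had a median of -1.41, and 10 were called lower where 35.2% of all genes were. Scaling by library size alone, by relative log expression, or after acinar and immunoglobulin genes were removed each left 9 called lower and 0 higher.

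The share of each gene within the summed reads of the 10 also differed between the groups. Fcgbp made up 37.2% to 39.1% of them in mutants and 39.4% to 44.0% in WT. Zg16 made up 14.9% to 22.2% in mutants and 30.3% to 35.0% in WT. Tff3 made up 13.5% to 16.5% in mutants and 7.43% to 9.85% in WT.

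Muc2 made up 8.29% to 10.8% of the summed reads in mutants and 3.62% to 5.70% in WT. For Spink4 the share was 3.08% to 5.21% in mutants and 0.731% to 1.29% in WT. Clca1 made up 11.6% to 14.3% in mutants and 10.2% to 10.6% in WT, and Agr2, Spdef and Bcas1 also took larger shares in mutants. The shares of 9 of the 10 genes did not overlap between the groups, while that of Atoh1 was 0.0589% to 0.260% in mutants and 0.163% to 0.197% in WT. A share of reads depends on gene length and on the other 9 genes, and these shares are given without a test. A fall in the share of 1 gene raises those of the others, so the shares that did not overlap are not separate differences.

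**Figure D3:**
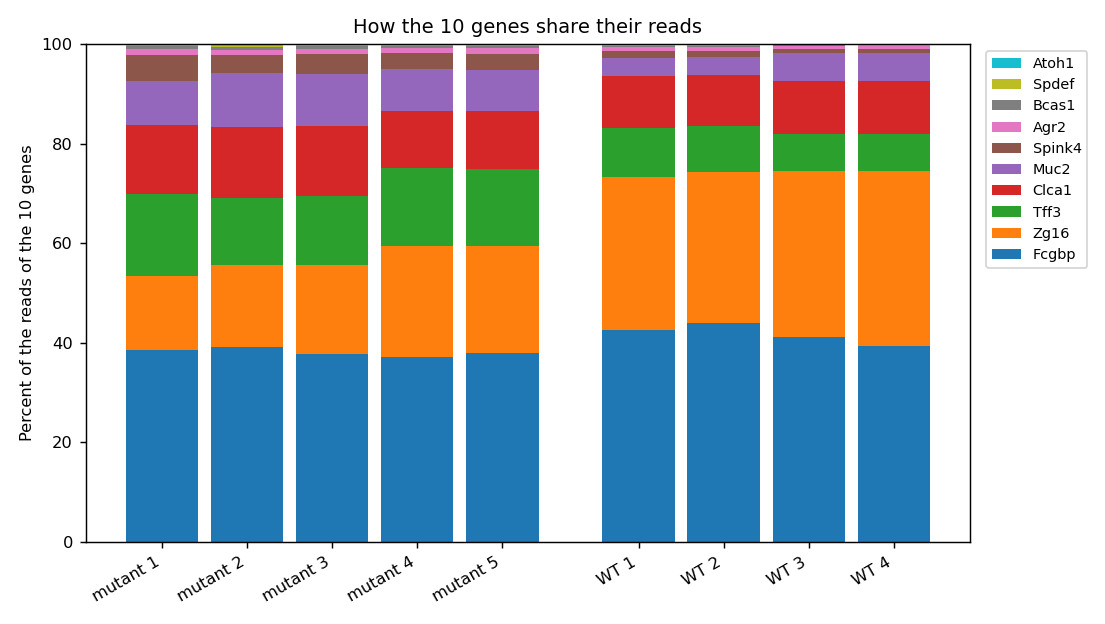
Percent of the summed reads of the 10 genes that each gene took (vertical axis), by library, mutants on the left and WT on the right. Zg16 takes 14.9% to 22.2% in mutants and 30.3% to 35.0% in WT, and Fcgbp also takes a smaller share in mutants, while Tff3, Muc2, Clca1, Spink4, Agr2, Spdef and Bcas1 take larger ones.

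Levels per gene length, as CPM per kilobase of gene model (RPKM), allow the genes to be set in order. In mutants the median RPKM was 532 for Tff3, 282 for Zg16, 118 for Spink4, 59.7 for Fcgbp and 51.5 for Clca1. In WT it was 1927 for Zg16, 1285 for Tff3, 302 for Fcgbp, 210.0 for Clca1 and 150.2 for Spink4. Tff3 ranked first in each of the 5 mutants and Zg16 first in each of the 4 WT libraries. In the same way, Spink4 ranked 3 in each mutant and 5 in each WT library.

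Lower in the order, the median RPKM in mutants was 19.9 for Muc2, 14.2 for Agr2, 1.94 for Spdef, 1.77 for Bcas1 and 1.61 for Atoh1. In WT it was 49.8 for Muc2, 40.6 for Agr2, 6.47 for Atoh1, 4.92 for Spdef and 4.38 for Bcas1. Neighbours whose ranges overlapped were Fcgbp and Clca1, Zg16 and Spink4, Muc2 and Agr2, and all 3 of the lowest genes in mutants. In WT they were Muc2 with Agr2, and Spdef with both Atoh1 and Bcas1. The level of Muc2 per length rests on the fragmented gene model.

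Within genotypes the genes did not all follow Muc2. Over the 9 libraries, with the mean of each genotype taken out, Pearson's r of log2 CPM with Muc2 was 0.86 for Clca1, 0.73 for Fcgbp, 0.71 for Atoh1, 0.68 for Zg16 and 0.57 for Bcas1. It was 0.33 for Tff3, 0.26 for Agr2, 0.06 for Spink4 and 0.05 for Spdef. The log2 ratio of WT 3 and 4 over WT 1 and 2 was 0.59 for Muc2, 0.13 for Zg16 and 0.00 for Clca1, while the other 7 ranged from -0.69 for Spink4 to -0.14 for Fcgbp. Of the same 8631 genes, those most like Muc2 included Cdk6 (r = 0.97), Lax1 (0.97), Dnajc11 (0.97) and Dmbt1 (0.97), and Clca1 ranked 98. Dmbt1 encodes a mucosal scavenger receptor glycoprotein. These values rest on 9 libraries in close pairs and are descriptions.

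Most other goblet cell genes were lower as well. Of 25 in the list, 24 were tested, 17 were called lower and 2 higher, with a median log2 fold change of -1.32, where 17.1% of all tested genes were called lower and 15.4% higher. With close pairs summed 13 were lower and 0 higher, against 6.78% and 2.23% of all genes. The members with the smallest p were the kallikrein Klk1, at -5.09 (SE 0.26), Ramp1, a receptor activity modifying protein, at -1.32 (SE 0.13), and Sytl2, a synaptotagmin-like effector of RAB27, at -1.66 (SE 0.17). Next came the endoplasmic reticulum stress transducer Creb3l1, at -1.33 (SE 0.15), and Ttc39a, at -1.85 (SE 0.21). The goblet transcription factor Foxa3 fell by 1.33 (SE 0.22) and the sensor Ern2 by 1.85 (SE 0.22).

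The 2 higher genes were the actin-severing Scin, at 0.59 (SE 0.19; edgeR adjusted p = 0.036), and Oit1, at 0.40 (SE 0.12; adjusted p = 0.024). Both calls were lost with close pairs summed (adjusted p = 0.14 and 0.16), with epithelial scaling (0.12 and 0.87) and without mutant 1 (0.072 and 0.069). That of Scin was lost also without mutant 2 (0.075), mutant 3 (0.072), WT 3 (0.099) or WT 4 (0.087), and that of Oit1 without mutant 4 (0.051), WT 1 (0.070) or WT 2 (0.073). The resistin-like Retnlb, which type 2 cytokines induce in goblet cells, averaged 1.03 ± 0.822 CPM in mutants (SD, n = 5) and 0.352 ± 0.236 CPM in WT (SD, n = 4), with an edgeR adjusted p of 0.20.

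Other mucins and trefoil factors were few. Of 12 in the list, 5 were tested, and 2 were called lower and 0 higher, against 17.1% and 15.4% of all tested genes. Both lower genes had few reads in mutants and passed the filter on low counts through the WT libraries, so the count supports nothing about the list. Tff2, the trefoil factor of gastric and Brunner glands, held 6 reads in the 5 mutant libraries and 7851 reads in the 4 WT libraries. The transmembrane mucin Muc1 held 9 reads in mutants and 516 in WT. The other tested genes were the membrane mucins Muc3, at 0.81 (SE 0.35; edgeR adjusted p = 0.11), Muc4, at 0.33 (SE 0.19; 0.22), and Muc13, at 0.27 (SE 0.12; 0.089). None of them passed the test.

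Of 15 genes of secretory fate and Notch signalling, 7 were lower and 3 higher, with a median of -0.31. The share higher was near the 15.4% of all tested genes, while 17.1% of all genes were lower. With close pairs summed 2 were lower and 1 higher, against 6.78% and 2.23% of all genes. The receptor Notch1 was at -1.40 (SE 0.23), the Notch-modifying glycosyltransferase Lfng at -1.82 (SE 0.19) and the epithelial ETS factor Elf3 at 0.58 (SE 0.08). Gfi1, which acts after ATOH1 in the secretory lineage, fell by 1.07 (SE 0.21) but was not called with close pairs summed (adjusted p = 0.076). With epithelial scaling 9 were lower and 1 higher, against 35.2% and 2.04% of all genes. The Notch target Hes1, at -0.04 (SE 0.20; edgeR adjusted p = 0.91), did not pass the test.

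For granule docking and exocytosis 6 of 13 genes were lower and 2 higher, with a median of -0.49. The share higher was that of all tested genes, 15.4%, while 17.1% of all genes were lower. With close pairs summed 3 were lower and 0 higher, against 6.78% and 2.23% of all genes. The granule GTPases Rab3d and Rab27a fell by 1.20 (SE 0.15) and 0.93 (SE 0.13) on the log2 scale. The v-SNARE Vamp8, which serves mucin granule release, rose by 0.51 (SE 0.12) but was not called with close pairs summed (adjusted p = 0.080). With epithelial scaling 7 were lower and 0 higher, against 35.2% and 2.04% of all genes.

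Among 12 cytokines and receptors that act on goblet cells, 6 were tested, and 2 were lower and 0 higher, against 17.1% and 15.4% of all tested genes. With close pairs summed 0 were called, with adjusted p-values of 0.23 for Il33 and 0.15 for Il22ra1. The alarmin Il33 was at -0.50 (SE 0.14; edgeR adjusted p = 0.016) and the interleukin 22 receptor subunit Il22ra1 at -0.56 (SE 0.17; 0.025). The Il33 call was lost without WT 2 (adjusted p = 0.050), and that of Il22ra1 without WT 1, 2 or 3 (0.050, 0.064 and 0.058). The type 2 receptor chains Il4ra, at 0.04 (SE 0.10), and Il13ra1, at 0.20 (SE 0.08), were not called. The cytokines Il4, Il13 and Il22 were below the filter on low counts.

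**Figure D4:**
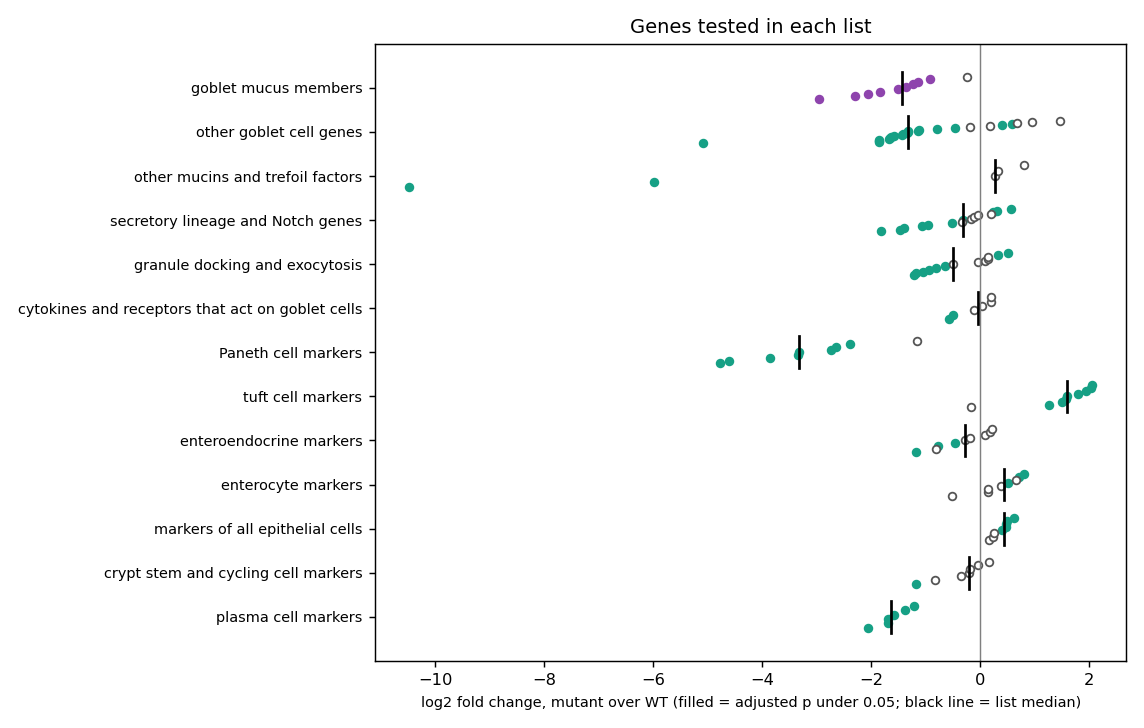
Log2 fold change, mutant over WT (horizontal axis), of each tested gene of 13 lists; filled points have an adjusted p under 0.05 and black lines are list medians. The 10 goblet mucus genes and the other goblet cell genes have medians of -1.43 and -1.32, Paneth markers lie lower at -3.31, and tuft markers at 1.60.

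Markers of other cell types also differed between the groups, some lower and some higher in mutants. Among secretory cells, 8 of 9 Paneth markers were lower (median -3.31) and 3 of 9 enteroendocrine markers were lower (median -0.26). Of 9 tested tuft markers, 8 were higher (median 1.60). Of all tested genes, 17.1% were lower and 15.4% higher. The Paneth marker Defa22 held 38 reads in mutants and 973 in WT. It passed the filter on low counts through the WT libraries, so its call supports nothing about the list. After close pairs were summed, 7 Paneth and 1 enteroendocrine marker were lower and 8 tuft markers higher, against 6.78% lower and 2.23% higher of all genes. Paneth markers summed to 125 to 249 CPM in mutants and 1307 to 3575 CPM in WT, with Lyz1 at 39.2 CPM in mutants and 955 CPM in WT and Mmp7 at 3.63 and 36.6 CPM on average. Tuft markers summed to 290 to 492 CPM in mutants and 136 to 164 CPM in WT, with Dclk1 at 44.4 and 14.6 CPM and Trpm5 at 69.3 and 28.8 CPM on average. Enteroendocrine markers summed to 194 to 264 CPM in mutants and 326 to 357 CPM in WT. Chgb was at -1.17 (SE 0.27; edgeR adjusted p = 0.010) and did not pass after close pairs were summed (adjusted p = 0.088). Chga was at -0.81 (SE 0.28; adjusted p = 0.052), and DESeq2 called it lower (adjusted p = 0.0064).

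Markers of all epithelial cells were higher for 5 of 8 genes, against 15.4% of all tested genes, and for 1 of 8 with close pairs summed, against 2.23%. Epcam averaged 1650 CPM in mutants and 1179 CPM in WT, and Cdh1 673 and 505 CPM, but with close pairs summed neither was called (adjusted p = 0.10 and 0.098). The 8 genes summed to 9669 to 10945 CPM in mutants and 6970 to 8931 CPM in WT. Of 8 enterocyte markers 3 were higher and 0 lower, where 15.4% of all tested genes were higher and 17.1% lower. Among the 3 were Fabp1, at 2861 CPM in mutants and 1997 CPM in WT, and Fabp2, at 3924 and 2374 CPM. Summing close pairs left 0 called, where 2.23% of all genes were higher and 6.78% lower. The adjusted p-values were then 0.12 for Fabp1 and 0.062 for Fabp2. Fabp1 was also not called with epithelial scaling (adjusted p = 0.30). Of 7 crypt stem and cycling markers 1 was lower, no larger a share than the 17.1% of all genes. It was Lgr5, at -1.18 (SE 0.23), which was not called with close pairs summed (adjusted p = 0.054), while Olfm4 was at -0.34 (SE 0.20; adjusted p = 0.22). With epithelial scaling 5 were lower, against 35.2% of all genes. All 6 plasma cell markers were lower, and 4 of 6 with close pairs summed, against 17.1% and 6.78% of all genes, with sums of 1718 to 5037 CPM in mutants and 10645.5 to 11185 CPM in WT, and Jchain and Mzb1 were at -1.21 (SE 0.23) and -1.38 (SE 0.21). Jchain was not called with close pairs summed (adjusted p = 0.089). The part of these cell types in the fall of the mucus genes was not tested.

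Among the mutants, mutant 1 had the lowest sums of mucus genes, Paneth and plasma cell markers. It had the highest sums of tuft and epithelial markers. It also had the highest sum of other goblet cell genes, at 1354 CPM, against 1094 to 1257 CPM in the other mutants. Its mitochondrial share, 7.44% of counts, was also the highest, against 5.39% to 7.17% in the other mutants and 3.80% to 4.06% in WT. Without mutant 1, the same number of genes, 9, was called lower.

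The WT samples also held pancreatic acinar RNA. The 8 acinar markers summed to 0 to 0.942 CPM in mutants and 25995 to 56110 CPM in WT. Cela3b held 1 read and Cela2a 4 over the 5 mutants. These markers passed the filter on low counts through the WT libraries, so no count of calls is given for them. Their sum had a log2 ratio of 1.10 for WT 3 and 4 over WT 1 and 2. The mucus genes had WT pair ratios of -0.69 to 0.59 on this scale, and Zg16, named for the zymogen granules of the pancreas, had 0.13. Klk1, Muc1 and Tff2 had ratios of 0.95, 0.96 and 1.36, near or above the acinar value. The membrane mucin Muc3, which was not called lower, had 1.45, so such a ratio was not particular to genes lower in mutants. Of 5 Brunner gland markers only Tff2 passed the filter on low counts, and Muc6 averaged 0.444 CPM in mutants and 0.345 CPM in WT. Whether the same tissue was taken in each group was not tested.

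**Figure D5:**
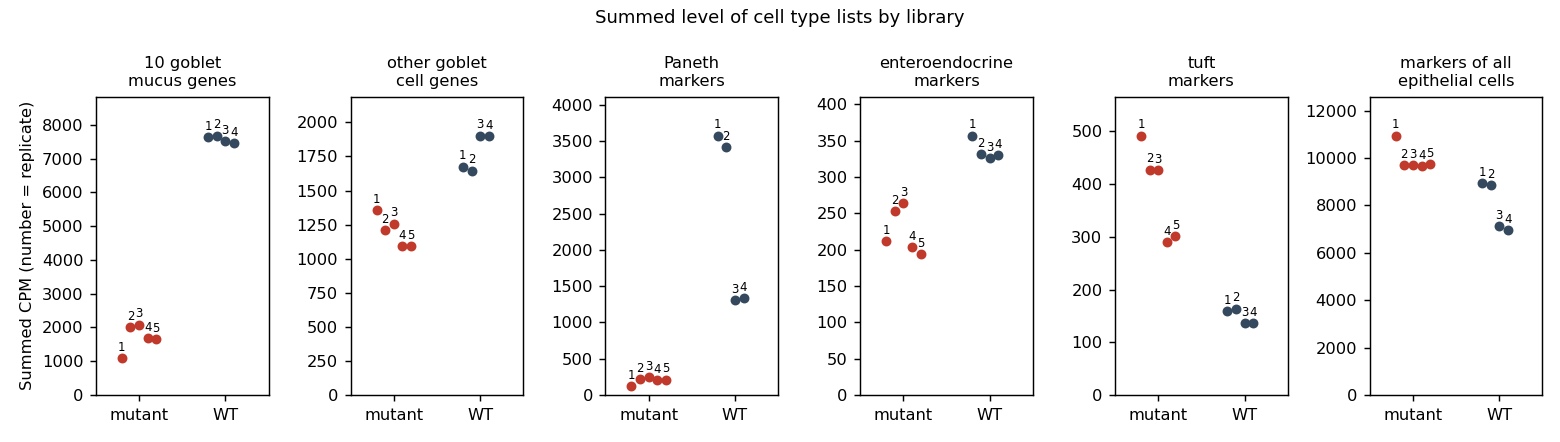
Summed CPM of each list (vertical axes, starting at 0) by library, with 5 mutant libraries in red and 4 WT libraries in dark blue; numbers are replicates. The sums of the 10 mucus genes are 1081 to 2084 CPM in mutants and 7448 to 7680 CPM in WT, Paneth markers are lower and tuft markers higher in mutants. The sum of other goblet cell genes includes Klk1, at 14.8 to 21.3 CPM in mutants and 413 to 812 CPM in WT.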

How the data were processed

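For each of 9 libraries the authors deposited raw counts of reads by gene (polyadenylated RNA, random-hexamer cDNA, per the labels' protocols), without normalization. HISAT2 2.0.5 and featureCounts 1.5.0-p3 are named in the submitters' processing notes, with builds GRCh37, hg19 and mm39. All 10 genes had the coordinates of GENCODE M21 on GRCm38, as did 53499 of 54532 genes, so GRCm38 is given. Gene lengths are those of the deposited table. The strand setting is not given in the sources used here. No per-sample column was left out.

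Mutant was compared with WT in R 4.3.3 by edgeR 4.0.16 (quasi-likelihood test, TMM, default filter, robust dispersion) with a single term for genotype. A gene was called at an adjusted p under 0.05 (Benjamini-Hochberg, 15416 genes). CPM and RPKM use TMM-scaled library sizes. The SE is the coefficient divided by the root of the test statistic. Alternatives used limma 3.58.1 and DESeq2 1.42.0. The steps were tested on simulated data.

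The genes, lists and tests were chosen with earlier results of these data known. Named were the 10 genes, the called genes of smallest p of each list (5 per direction for goblet genes, 3 for others) and the first 2 markers of each cell type. Genes that this rule picks but that are not named are not reported here. Foxa3, Ern2, Retnlb, Muc3, Muc4, Muc13, Gfi1, Hes1, Vamp8, Il4, Il13, Il22, Il4ra, Il13ra1 and Defa22 were named after their values were seen.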

Additional observations from a re-analysis of the deposited data

Results flagged for a closer look

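In 7 of the 88 groups of named genes checked, 1 library lay far from the others. For independent, normally spread values chance alone gives about 1 such group in 20. These libraries form close pairs, so the rate that chance gives here is not known. Zg16 was at 160.9 CPM in mutant 1, against 328 to 373 CPM in the other mutants. Bcas1 was at 12.2 CPM in WT 4, against 16.4 to 17.2 CPM in the other WT libraries. Jchain, a plasma cell marker, was at 230.4 CPM in mutant 1, against 531 to 585 CPM in the other mutants. Il33 was at 23.2 CPM in mutant 1, against 15.4 to 16.8 CPM in the other mutants. Fabp2 was at 2261 CPM in WT 2, against 2404 to 2424 CPM in the other WT libraries. Tff2 was at 0.289 CPM in mutant 5, against 0 to 0.0589 CPM in the others, and Cela3b at 0.0589 CPM in mutant 4, with 0 in the others, which is 1 read.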

How the results depend on the processing

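Over 24 alternatives, Tff3, Fcgbp, Clca1, Zg16, Agr2 and Spdef were called lower in each. Muc2, Atoh1 and Bcas1 kept their direction in each, and were called in 21, 23 and 22. The number of the 10 genes called lower was 6 to 10. Among other goblet cell genes, 2 were called higher over 9 libraries, and 1 with library size alone, without a filter or without WT 3 and 4, 0 with epithelial scaling or close pairs summed, and 3 by voom with quality weights, with the pair as a random block or without mutants 4 and 5. Leaving out 1 library gave 0 to 3. Of 34 other named genes, 14 changed their call in some setting. Equal mouse numbers did not mark paired libraries (correlation of deviations 0.0362, 0.136, -0.135 and 0.117), and with the replicate number as a block 9 of the 10 were called lower and 0 higher, and 17 and 2 of the other goblet cell genes. With epithelial scaling Chga and Olfm4 were also called lower. Low counts limit Atoh1 in mutant 1, and units of 3 and 2 limit the summed fit.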
